A study of Mus musculus with 12 samples.

Results

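Laminins are large secreted glycoproteins built from 1 alpha, 1 beta and 1 gamma chain, and they form the sheet of the basement membrane on which endothelial cells, pericytes and the end feet of Müller glia rest. The 9 chain genes described here are Lama1, Lama2, Lama3, Lama4 and Lama5 for the alpha chains, Lamb1 and Lamb2 for the beta chains, and Lamc1 and Lamc3 for the gamma chains. They were chosen by name from the 36131 genes of the count table, and each symbol matched a single Ensembl row. All 9 passed the filter on low counts. The alpha chain carries most of the sites that cells bind. Lama4 encodes the alpha chain of vessel walls, made by endothelial cells and pericytes, and Lama5 encodes an alpha chain of mature vessels and of epithelia. Lama1 is known from the inner limiting membrane of the retina and from the lens capsule, Lama2 from muscle and brain vessels, and Lama3 from epithelia such as skin. Lamb1 and Lamc1 are the beta and gamma chains of most laminins, Lamb2 is known from the inner retina and photoreceptor matrix, and Lamc3 from the same matrix.

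Retinas came from C57BL/6J wildtype mice at P18, 4 mice for each of 3 groups, and every mouse gave 1 library. RA-PBS mice (animals 1 to 4) stayed in room air and received placebo. O2-PBS mice (animals 5 to 8) spent P7 to P12 in 75% O2 with their dams, the model of oxygen-induced retinopathy in which capillaries are lost and tufts then grow into the vitreous, and received the same placebo. O2-IC100 mice (animals 9 to 12) had the same oxygen and IC100, a humanized antibody against the inflammasome adaptor ASC, by intraperitoneal injection at 10 µg/g. Placebo or IC100 was given on P12, P14 and P16, and whole retinas hold neurons, glia and vessels together.

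The deposited estimated counts summed to 14907143 to 24438082 per retina. Animal 10 of O2-IC100 stood apart. Lens crystallin genes took 59% of its counts, its summed rod markers were at 9380 CPM against 33000 to 39300 in the other 11 retinas, and its summed pigment epithelium markers were at 6640 CPM against 43.4 to 249. The crystallin share was 1.26 to 4.51% in RA-PBS animals 2, 3 and 4 and at most 0.0204% in the other 8 retinas. Y-linked genes were low in animals 4, 5, 6, 7 and 10 and high in the others, so that the 3 remaining O2-IC100 retinas were all of the high kind and 3 of 4 O2-PBS retinas of the low kind. Comparisons of the laminin chains are given over 12 animals and over the 11 without animal 10. Levels are given as CPM, that is counts scaled to the TMM-normalized size of each library. Rose, fell and passed mean a fold of 1.5 or more with p below 0.05 and adjusted p below 0.1 in edgeR's quasi-likelihood test over all genes.

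Promoter sequence was at hand for 4 of the 9 genes, Lama2, Lama5, Lamb1 and Lamb2. The pair of beta chain genes is shown because Lamb1 moved furthest of these 4 between RA-PBS and O2-PBS and Lamb2 is the other beta chain. Each line holds the 250 bases before the RefSeq start of the gene in GRCm38.p6, at chr12:31265043-31265292 on the plus strand for Lamb1 and chr9:108479612-108479861 on the plus strand for Lamb2, and capitals mark matches, on either strand, to the motifs named next.
Lamb1: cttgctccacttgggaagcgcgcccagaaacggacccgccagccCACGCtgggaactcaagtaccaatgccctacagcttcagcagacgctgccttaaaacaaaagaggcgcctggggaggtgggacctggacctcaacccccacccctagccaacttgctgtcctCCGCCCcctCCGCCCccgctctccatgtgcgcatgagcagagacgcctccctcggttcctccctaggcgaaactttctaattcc
Lamb2: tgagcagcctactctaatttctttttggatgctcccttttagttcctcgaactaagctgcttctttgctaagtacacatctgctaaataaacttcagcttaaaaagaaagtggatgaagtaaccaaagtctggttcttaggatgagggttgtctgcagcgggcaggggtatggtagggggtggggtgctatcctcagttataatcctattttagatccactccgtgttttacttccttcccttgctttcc
The motifs were the 2 hypoxia response cores ACGTG and GCGTG, the GC box GGGCGG, the AP-1 site TGANTCA and the E-box CACGTG, which contains ACGTG. They were chosen after the counts had been seen. Lamb1 held 1 GCGTG match and 2 GGGCGG matches, and Lama5 held 4 GGGCGG matches. No motif matched in Lamb2 or Lama2. Among 32851 RefSeq promoters of the same length, 28.2% held GCGTG, 32.7% GGGCGG, 16.6% ACGTG, 6.75% TGANTCA and 6.02% CACGTG. The Lamb1 window had 62% G and C with 14 CpG, the Lamb2 window 43.6% with 3 CpG, the Lama5 window 72.4% with 19 CpG and the Lama2 window 47.2% with 0 CpG, where the median of all promoters was 52.4% and 6 CpG. A match describes the letters of the window and was not tested as a binding site.

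Lama4 had the widest difference between groups. Its level was 13.8, 8.98, 14.9 and 8.32 CPM in RA-PBS animals 1 to 4. In O2-PBS animals 5 to 8 it was 59.5, 42.6, 44 and 57.2 CPM. In O2-IC100 it was 15.8, 16.6 and 16.3 CPM in animals 9, 11 and 12 and 4.42 CPM in animal 10. All 4 O2-PBS retinas lay above every other retina, and without animal 10 the 3 O2-IC100 retinas lay within 1 CPM of each other and just above the highest RA-PBS retina. The means were 11.5 ± 3.34 CPM in RA-PBS (SD, n = 4), 50.8 ± 8.76 CPM in O2-PBS (SD, n = 4) and 16.2 ± 0.434 CPM in O2-IC100 without animal 10 (SD, n = 3).

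Lamb1, the beta chain that pairs with the alpha chain of Lama4 in the first vessel laminin to appear, measured 34.6, 35.2, 51.9 and 27.9 CPM in RA-PBS. It measured 93, 62.1, 70 and 76.7 CPM in O2-PBS. It measured 37.6, 39.5 and 32.9 CPM in O2-IC100 animals 9, 11 and 12 and 313 CPM in animal 10. The lowest O2-PBS retina lay above the highest RA-PBS retina, animal 3, and animal 10 was above all others. Lamc1, the gamma chain shared by most laminins, was at 44.1, 51.2, 68.2 and 32.9 CPM in RA-PBS. Its values in O2-PBS were 132, 83.5, 76.6 and 96.3 CPM. In O2-IC100 they were 38.1, 40.4 and 43 CPM, and 162 CPM in animal 10. O2-PBS and RA-PBS did not overlap for Lamc1 either, and without animal 10 all 3 O2-IC100 retinas lay inside the RA-PBS range.

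Lamb2, the other beta chain, ran at 26.1, 27.2, 31.1 and 17.1 CPM in RA-PBS. It ran at 43.9, 34, 31.9 and 31.8 CPM in O2-PBS. In O2-IC100 it was at 20.2, 20.1 and 19.3 CPM, and at 65.1 CPM in animal 10. The highest RA-PBS and the lowest O2-PBS retina were less than 1 CPM apart, so these groups did not overlap but nearly met. Lama5 spread widely in room air, with 15.2, 36.9, 46.6 and 19.5 CPM in RA-PBS. It was at 56, 36.3, 37.2 and 34.6 CPM in O2-PBS. It was at 26.6, 25.2 and 27.6 CPM in O2-IC100 and at 178 CPM in animal 10. The RA-PBS range of Lama5 covered 3 of the 4 O2-PBS retinas and all of O2-IC100 but animal 10.

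The remaining 4 chains were low and their RA-PBS and O2-PBS ranges overlapped. Lama1 lay between 8.9 and 18.2 CPM in RA-PBS, 10.5 and 14.2 CPM in O2-PBS, and 8.3 and 11 CPM in O2-IC100 without animal 10, which held 102 CPM. Lama2 lay between 5.41 and 13.7, 7.24 and 11.1, and 4.85 and 5.74 CPM in the same order, with 67.4 CPM in animal 10. Lama3 lay between 3.31 and 5.36, 3.01 and 4.12, and 2.82 and 3.41 CPM, with 8.96 CPM in animal 10. Lamc3 lay between 3.9 and 11.4, 5.99 and 8.54, and 4.52 and 5.25 CPM, and animal 10 had only 1.01 CPM. Animal 10 was thus the highest retina of all 12 for Lama1, Lama2, Lama3, Lama5, Lamb1, Lamb2 and Lamc1 and the lowest for Lama4 and Lamc3. Lamb3, the beta chain that joins Lama3 in the laminin of skin, stayed at 0.379 to 2.35 CPM in every retina.

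**Figure D1:**
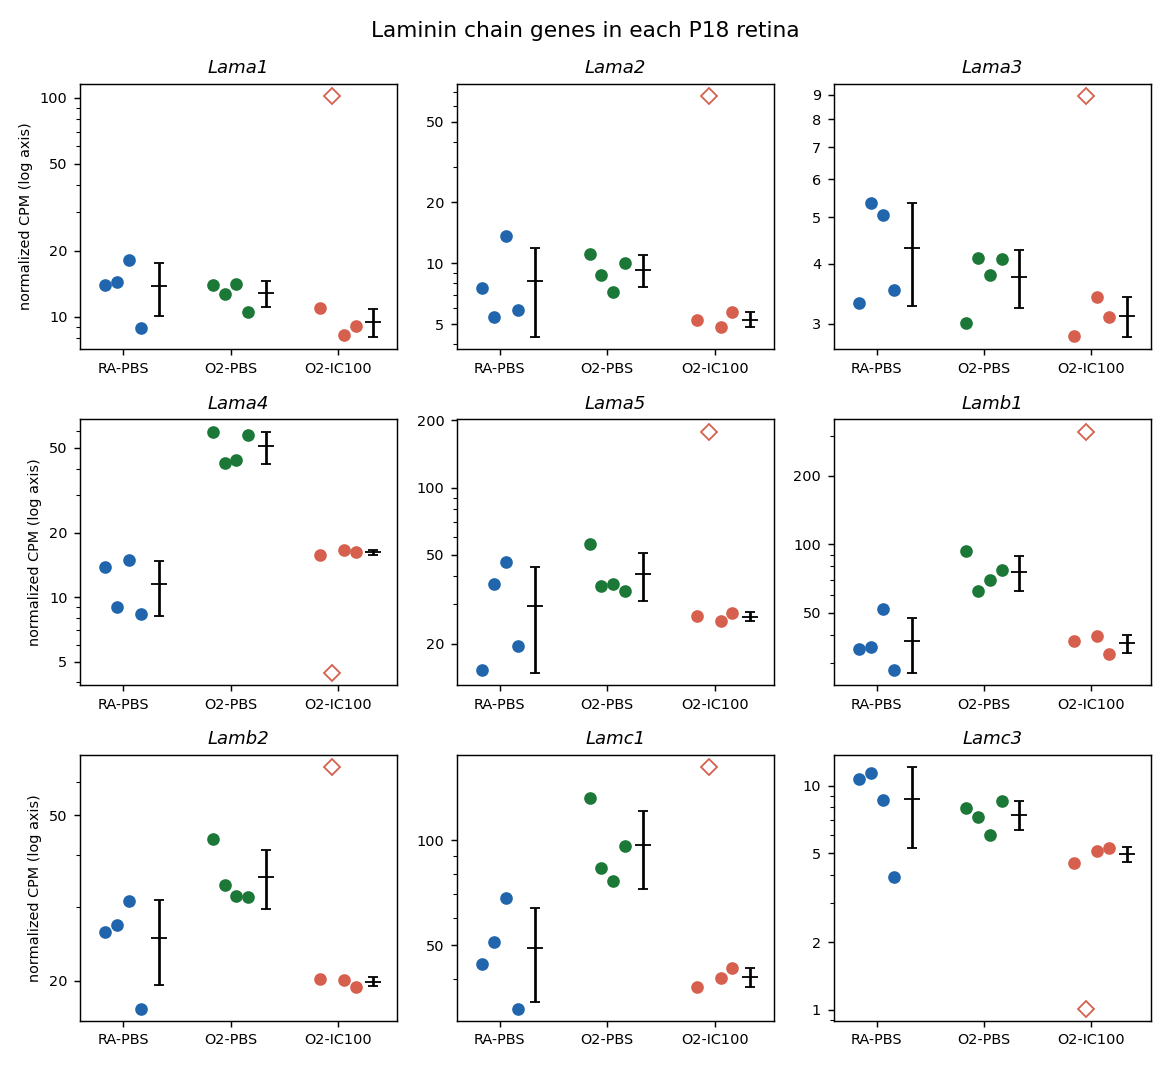
Normalized CPM (log axis, a separate range in each panel) of the 9 laminin chain genes, 1 point per retina, for RA-PBS, O2-PBS and O2-IC100. Open diamonds are O2-IC100 animal 10, and black marks are the mean and SD without it; Lama4 in the 4 O2-PBS retinas lies between 42.6 and 59.5 CPM, above all other retinas.

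Exposure to O2 was compared first with room air, both under placebo, which asks what oxygen-induced retinopathy changed. Lama4 rose 4.41-fold, and over 11 animals Lamb1 rose 2.01-fold and Lamc1 1.97-fold, so that 1 alpha, 1 beta and 1 gamma chain rose. None of the 9 fell. In the 11-animal fit the log2 fold change was 2.14 for Lama4 (SE 0.18, edgeR adjusted p = 4.36e-05), 1.01 for Lamb1 (SE 0.17, adjusted p = 0.00269) and 0.98 for Lamc1 (SE 0.20, adjusted p = 0.0101). These were 3 of 9 chains, where 4.09% of all 16688 tested genes rose. In bulk retina a change in RNA per cell and a change in the number of cells that make it cannot be told apart.

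Lamb2 passed the adjusted p but not the fold, with a log2 fold change of 0.48 (SE 0.16, adjusted p = 0.0785). Lama5 had 0.47 (SE 0.30, adjusted p = 0.398). Lama2 had 0.19, Lama1 -0.11, Lama3 -0.20 and Lamc3 -0.22, with adjusted p from 0.613 to 0.772 for these 4. The median log2 fold change of the 9 chains was 0.47, against -0.01 over all genes tested. Ranked from the lowest of all log2 fold changes, Lama4 was at percentile 99.5, Lamb1 at 96.4 and Lamc1 at 96.2.

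Over 12 animals only Lama4 passed, with the same log2 fold change of 2.14 (SE 0.36, adjusted p = 0.0321). That is 1 of 9, where 0.782% of 16489 genes rose. Lamb1 kept its log2 fold change of 1.01 with an SE of 0.65 (adjusted p = 0.966), and Lamc1 had 0.99 with an SE of 0.45 (adjusted p = 0.707). Both fits hold every RA-PBS and O2-PBS retina, and they differ in whether animal 10 enters the estimate of the spread. A fit of RA-PBS and O2-PBS alone, in which O2-IC100 has no part, called Lama4 (adjusted p = 0.000769), Lamb1 (adjusted p = 0.0124) and Lamc1 (adjusted p = 0.0316). Without overlap between the groups, 4 of 9 chains (Lama4, Lamb1, Lamb2 and Lamc1) were higher in O2-PBS, where this held for 7.81% of genes over 12 animals. Over 12 animals the call of Lama4 was lost without any 1 of animals 2, 4, 5 and 8, at adjusted p = 0.102 to 0.156, and over 11 animals it held in all 25 alternatives, at adjusted p = 2e-27 to 0.00154. Over 11 animals, without RA-PBS animal 3, which had the highest crystallin share of its group, 5 chains passed. Lama5 at 0.77 (adjusted p = 0.0895) and Lamb2 at 0.59 (adjusted p = 0.0333) were added. That fit called 1343 genes in all, against 1046 with animal 3. A further fit left out RA-PBS animals 2, 3 and 4, a choice made after seeing the data. It leaves animal 1 as the only RA-PBS retina, so it gives no spread for that group and only effect sizes are given. The log2 fold change of Lama5 was then 1.42, beside 1.87 for Lama4, 1.11 for Lamb1 and 1.13 for Lamc1.

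IC100 was compared with placebo among retinas exposed to O2. Over 11 animals Lama4 was 3.1-fold lower, Lamc1 2.38-fold, Lamb1 2.04-fold and Lamb2 1.77-fold lower under IC100, and none of the 9 was higher. The log2 fold change was -1.63 for Lama4 (SE 0.20, edgeR adjusted p = 0.0185). It was -1.25 for Lamc1 (SE 0.22, adjusted p = 0.0381), -1.03 for Lamb1 (SE 0.18, adjusted p = 0.0381) and -0.82 for Lamb2 (SE 0.17, adjusted p = 0.0644). These were 4 of 9 chains, where 0.731% of all genes fell. The other 5 did not pass, with log2 fold changes of -0.80 for Lama2 (adjusted p = 0.187), -0.62 for Lama5 (0.318), -0.57 for Lamc3 (0.284), -0.42 for Lama1 (0.27) and -0.26 for Lama3 (0.513). The median of the 9 was -0.80, against 0 over all genes. In 7 of 9 chains, all but Lama1 and Lama3, the 3 O2-IC100 retinas lay below every O2-PBS retina, where this held for 17.3% of all genes.

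These calls rest on few retinas. Without animal 9, 11 or 12 as well, so with 2 O2-IC100 retinas left, edgeR called 0 genes in all. Lama4 then had log2 fold changes of -1.61, -1.65 and -1.63 and adjusted p of 0.123, 0.125 and 0.106. Without O2-PBS animal 5 only Lama4 passed (-1.56, adjusted p = 0.0502), with Lamb1 at adjusted p = 0.109, Lamc1 at 0.106 and Lamb2 at 0.186. Without animal 6, 7 or 8, Lamb2 did not pass, at adjusted p of 0.107, 0.113 and 0.111. With the Y-linked genes as a covariate Lama4 was at -1.93 (adjusted p = 0.0207), Lamb1 at -1.24 and Lamc1 at -1.53 (both adjusted p = 0.0934), and Lamb2 missed the threshold at -1.03 (adjusted p = 0.11). The laminin messages are long, and correcting for their length and GC content brought the 4 to -1.45, -0.82, -0.97 and -0.61 for Lama4, Lamb1, Lamc1 and Lamb2, all still past the thresholds.

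Over 12 animals 0 of 9 chains passed, where 0% of all genes did in edgeR. At an unadjusted p under 0.05 the numbers were 1 chain, Lama4, and 2784 genes. DESeq2 called 112 genes with Lama4 among them, and limma voom called 2 genes and no laminin. Lama4 had a log2 fold change of -1.92 (SE 0.36, adjusted p = 0.287). For Lama1, Lama2, Lama3, Lama5 and Lamb1 the sign was positive, from 0.25 for Lama3 to 1.33 for Lama1, and animal 10 was the highest retina for each. When counts were scaled by library size only, it turned negative for Lama2, Lama3, Lama5 and Lamb1. Lama4 and Lamc3 were the 2 of 9 chains with all 4 O2-IC100 retinas below O2-PBS, where this held for 10.7% of genes.

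The third comparison set O2-IC100 against RA-PBS, which asks what still differed from room air after oxygen and IC100. Over 11 animals 0 of 9 chains passed in edgeR, where 1.56% of all genes did. With an unadjusted p under 0.05 there were 4 chains and 2595 of 16688 genes. DESeq2 called 1 chain, Lamc3, and 562 genes, and limma voom 0 chains and 252 genes. Lama4 was the nearest on the higher side, with a log2 fold change of 0.51 (SE 0.19, adjusted p = 0.22). Its 3 O2-IC100 retinas, at 15.8 to 16.6 CPM, lay above all 4 RA-PBS retinas, at 8.32 to 14.9 CPM. It was the only 1 of 9 chains without overlap, where 10.7% of all genes had none in either direction. Lamb1 had -0.01 (SE 0.18, adjusted p = 0.983), Lamc1 -0.26 (SE 0.22) and Lamb2 -0.34 (SE 0.17). Lamc3 had -0.79 (SE 0.28, adjusted p = 0.197), Lama2 -0.61, Lama1 -0.54, Lama3 -0.46 and Lama5 -0.14. Without RA-PBS animal 4, which held the least Lama1 and Lamc3 of its group, both passed, at -0.70 (adjusted p = 0.0171) and -1.03 (adjusted p = 0.00565). That fit called 925 genes in all, against 261 with animal 4.

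Over 12 animals 0 of 9 passed and 0% of all genes did in edgeR. At an unadjusted p under 0.05 there were 2 chains and 2183 genes, and DESeq2 called 0 chains and 280 genes and voom 0 chains and 2 genes. Lamb1 had a log2 fold change of 1.5 (SE 0.66, adjusted p = 0.374) and Lamc3 -1.10 (SE 0.44, adjusted p = 0.374). The first comparison shares its O2-PBS retinas with the second and its RA-PBS retinas with the third, so their values are not independent. For Lama4 the 3 log2 fold changes over 11 animals, in the order given, were 2.14, -1.63 and 0.51.

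**Figure D2:**
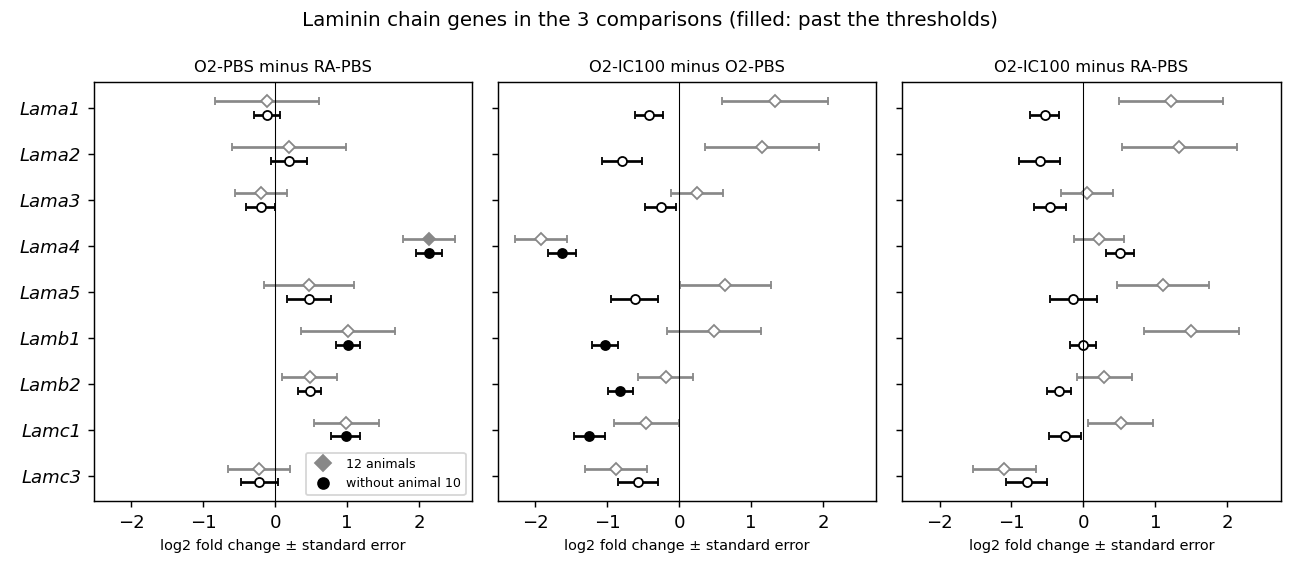
Log2 fold change with its standard error for the 9 laminin chain genes in the 3 comparisons, over 12 animals (grey diamonds) and without animal 10 (black circles), and filled where the gene passed the thresholds. Over 11 animals 3 chains are filled above 0 for O2-PBS minus RA-PBS and 4 below 0 for O2-IC100 minus O2-PBS.

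Levels of different chains were compared per length, as CPM per kb of the annotated transcript with the longest coding sequence. The whole length of that transcript ran from 5629 bases for Lamb2 to 11388 bases for Lama5. In RA-PBS, Lamb1 stood at 6.46 ± 1.77 and Lamc1 at 6.44 ± 1.94 CPM per kb (SD, n = 4), with no difference beyond their spread. Lamb2 followed at 4.51 ± 1.05, Lama5 at 2.59 ± 1.29, Lama4 at 1.90 ± 0.553, Lamc3 at 1.48 ± 0.577, Lama1 at 1.46 ± 0.401, Lama2 at 0.846 ± 0.398 and Lama3 at 0.409 ± 0.0989 CPM per kb. From Lama5 to Lama1 each chain lay within the SD of its neighbour. In O2-PBS, Lama4 stood at 8.41 ± 1.45 CPM per kb, behind Lamb1 at 13 ± 2.27 and Lamc1 at 12.8 ± 3.26 and ahead of Lamb2 at 6.29 ± 1.02 and Lama5 at 3.60 ± 0.882. In O2-IC100 without animal 10, Lama4 was at 2.68 ± 0.0717 and Lama5 at 2.32 ± 0.104 CPM per kb (SD, n = 3).

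Within the alpha chains the make-up shifted as well. On the per-length scale Lama4 was 27.2 ± 7.14% of alpha chain RNA in RA-PBS, where single retinas ran from 20.3 to 36.9%. In O2-PBS it was 57.2 ± 3.85%, from 54.8 to 62.9%. In O2-IC100 it was 39.3 ± 1.81% without animal 10, from 37.7 to 41.3%, and 2.09% in animal 10. The 3 groups did not overlap without animal 10, but RA-PBS animal 1 at 36.9% nearly met O2-IC100 animal 9 at 37.7%. This RA-PBS retina, with a crystallin share of 0.00691%, had Lama5 at 21.6%. RA-PBS animals 2, 3 and 4 had crystallin shares of 1.26 to 4.51%. Their Lama4 part was 20.3 to 27.7% and their Lama5 part 34.4 to 44.3%. The part of lens RNA in these values was not tested. Lama5, with the largest mean part in room air at 34.9 ± 9.78%, was 24.4 ± 3.15% in O2-PBS and 33.9 ± 0.758% in O2-IC100 without animal 10. The share of Lama1 was 20.4 ± 2.46% in RA-PBS, 9.33 ± 1.82% in O2-PBS and 14.5 ± 1.95% in O2-IC100 without animal 10, while its CPM in RA-PBS and O2-PBS overlapped. These are parts of a whole, so a larger part of Lama4 lowers the others.

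The beta and gamma chains shifted less. Lamb1 made up 58.8 ± 3.23% of beta chain RNA in RA-PBS, 67.4 ± 2.54% in O2-PBS and 64.1 ± 1.65% in O2-IC100 without animal 10. Lamc1 made up 81.5 ± 5.5%, 90.8 ± 1.43% and 86.3 ± 0.355% of gamma chain RNA in the same order. Added over the 9 genes, laminin RNA was 188 ± 54.7 CPM in RA-PBS, 333 ± 61.1 CPM in O2-PBS and 163 ± 0.785 CPM in O2-IC100 without animal 10. Animal 10 held 902 CPM.

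**Figure D3:**
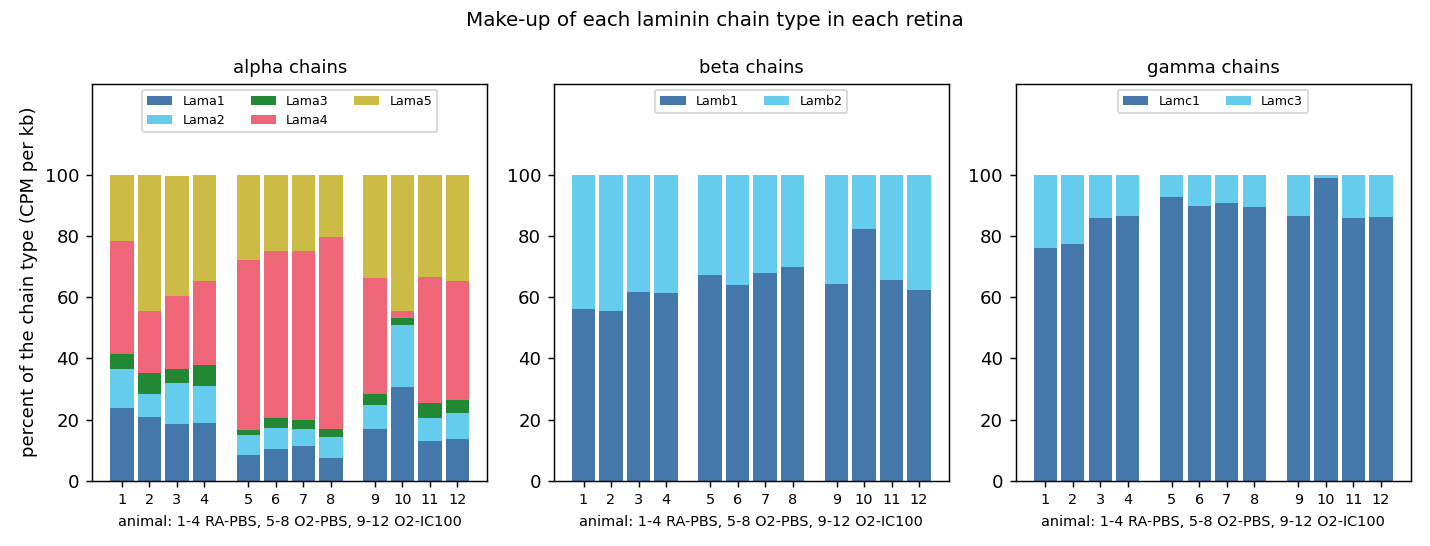
Percent of alpha, beta and gamma chain RNA, as CPM per kb, that each gene took in each of the 12 retinas, drawn as stacked bars that each add up to 100%. The Lama4 part (red) is 54.8 to 62.9% in the 4 O2-PBS retinas, 20.3 to 36.9% in RA-PBS and 2.09% in animal 10.

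Markers of vessel cells moved between the same groups. Endothelial markers (12 of 12 above 0 in every retina) summed to 235 to 328 CPM in RA-PBS, 467 to 536 CPM in O2-PBS and 335 to 376 CPM in O2-IC100 without animal 10, which had 64.5 CPM. Mural cell markers (10 genes) summed to 175 to 207, 361 to 526 and 312 to 376 CPM, with 735 CPM in animal 10. Most of these sums outside animal 10 was Rgs5, at 92.2 to 143, 238 to 344 and 235 to 278 CPM. The median log2 fold change of the 10 mural markers in O2-IC100 against RA-PBS was 0.18 over 11 animals. Markers of tip cells and tufts (6 genes) summed to 13.3 to 25.6, 88.4 to 182 and 47.4 to 64.8 CPM, with 24.5 CPM in animal 10, and 1 of them was at 0 in RA-PBS animal 1. Their part in the laminin changes was not tested. In O2-PBS against RA-PBS, 10 of 12 endothelial markers, 6 of 6 tip cell and tuft markers and 8 of 10 mural markers rose over 11 animals, where 4.09% of all genes did. Over 12 animals 2 of 12, 4 of 6 and 1 of 10 rose, where 0.782% of all genes did. Under IC100 against placebo 4 of 12, 2 of 6 and 3 of 10 fell over 11 animals, where 0.731% of all genes did. In O2-IC100 against RA-PBS over 11 animals 6 of 12, 3 of 6 and 1 of 10 were higher, where 0.947% of all genes were. There 1 endothelial marker was lower, where 0.617% of all genes were. Over 12 animals 0 markers passed in these 2 comparisons, and 0% of all genes did.

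Markers of tissue around the retina were measured beside them. Fibroblast and sclera markers (5 genes) summed to 12.1 to 54.8 CPM in RA-PBS, with animal 3 the highest, 34.7 to 63.3 CPM in O2-PBS and 13.1 to 21.6 CPM in O2-IC100 without animal 10, which had 333 CPM. Of the 5, 1 was at 0 in O2-PBS animals 5 and 7. Pigment epithelium markers were at 86.2 to 249 CPM in RA-PBS, 43.4 to 105 CPM in O2-PBS and 118 to 125 CPM in O2-IC100 without animal 10. Astrocyte markers were at 41.2 to 330, 135 to 245 and 89.6 to 133 CPM, and microglia markers at 44.1 to 80.1, 73.1 to 93.6 and 86.1 to 107 CPM. Within the astrocyte sums, Gfap was at 10.4 to 288, 89.1 to 187 and 44.5 to 83.4 CPM. Markers of Müller glia, whose end feet rest on the inner limiting membrane, were at 3610 to 4870, 2820 to 3140 and 3400 to 3690 CPM, so that the O2-PBS retinas lay below the others. Cone markers were at 721 to 870, 707 to 854 and 833 to 908 CPM, and skeletal muscle markers at 9.27 to 11.9, 9.95 to 32.7 and 9.41 to 12.4 CPM. Lens markers summed to 9.93 to 24200 CPM in RA-PBS and to at most 69.8 CPM in O2-PBS and O2-IC100 without animal 10. The part of these cells in the laminin values was not tested.

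**Figure D4:**
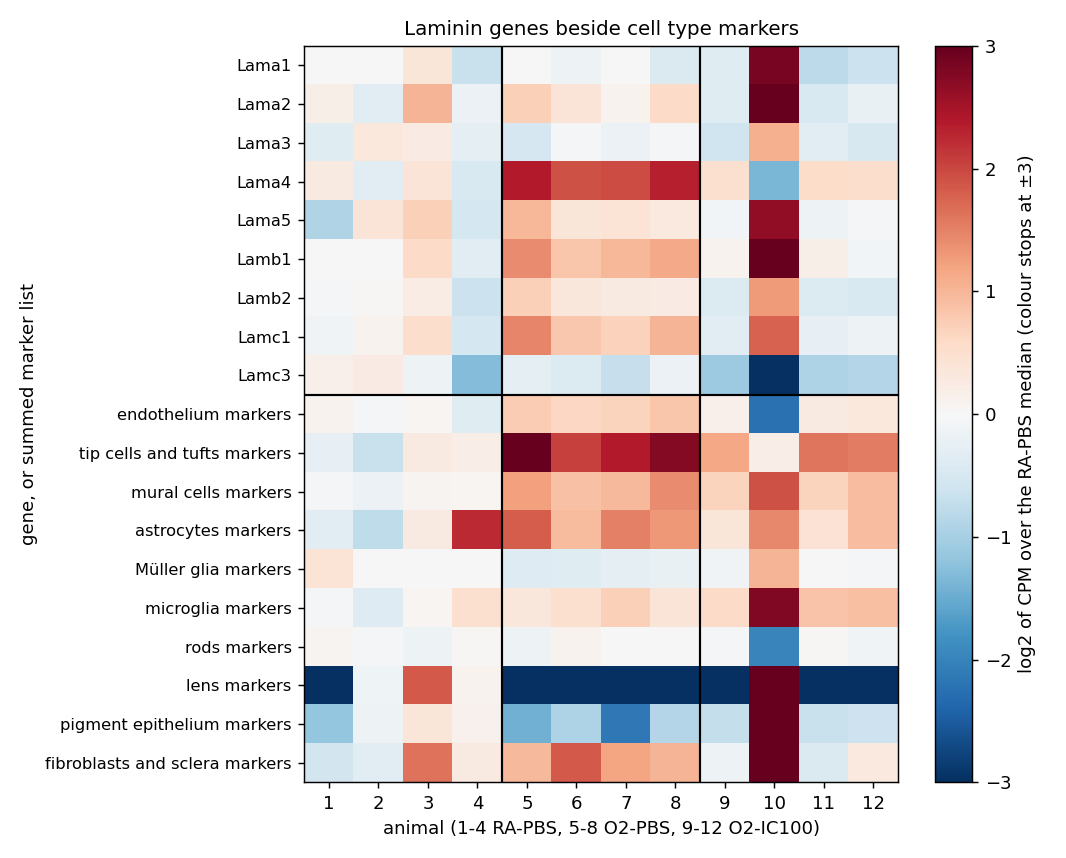
Log2 of CPM over the RA-PBS median in each retina, for the 9 laminin chain genes and for the summed markers of 10 cell types; red is higher, blue lower, and colours stop at 3 in either direction. Lama4, Lamb1 and Lamc1 are red in the 4 O2-PBS retinas, as are endothelial, tip cell and mural markers, and animal 10 stands apart with red lens, pigment epithelium and most laminin chains but blue Lama4 and Lamc3.

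Laminin is tied to the collagen IV network by nidogens and perlecan. Of 12 such basement membrane partners, 4 rose in O2-PBS against RA-PBS over 11 animals, where 4.09% of all genes rose, and none fell, where 2.18% did, with a median log2 fold change of 0.74. They were Nid2, encoding nidogen-2 (1.58, SE 0.31, adjusted p = 0.0092), the collagen IV chains Col4a1 (1.36, SE 0.35, adjusted p = 0.0392) and Col4a2 (1.17, SE 0.32, adjusted p = 0.0468), and Col15a1 (0.67, SE 0.19, adjusted p = 0.047). Perlecan, Hspg2, had 1.03 (SE 0.52, adjusted p = 0.294). Under IC100 against placebo 0 of the 12 passed over 11 animals in edgeR, where 0.947% of all genes did. The median was -0.62, and Hspg2 had -1.60 (adjusted p = 0.213), Col4a2 -1.40 (adjusted p = 0.115) and Nid2 -1.05 (adjusted p = 0.165). Over 12 animals 0 of 12 passed in each comparison, where 0.807%, 0% and 0% of all genes did. The list was also at 0 of 12 for O2-IC100 against RA-PBS over 11 animals, where 1.56% of all genes passed. Its median there was -0.31.

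Laminin receptors carry the signal into the cell. Of 11, 4 rose in O2-PBS over 11 animals, where 4.09% of all genes rose, with a median log2 fold change of 0.40. Mcam, encoding a cell adhesion molecule of endothelium and pericytes that binds the alpha chain of Lama4, had 2.06 (SE 0.23, adjusted p = 0.000198), and Itga1, encoding the integrin alpha 1 subunit, had 1.77 (SE 0.18, adjusted p = 0.000106). Itga2 had 1.06 (adjusted p = 0.0654) and Itgb1, the common beta 1 subunit, 0.69 (adjusted p = 0.00442). Under IC100, Mcam fell by 1.22 (adjusted p = 0.0518) and Itga1 fell by 0.92 (adjusted p = 0.0644) on the log2 scale, 2 of 11, where 0.731% of all genes fell. Itga1 alone differed between O2-IC100 and RA-PBS, at 0.85 (adjusted p = 0.0645), where 1.56% of all genes did. Over 12 animals 1 of 11 receptors, Itga1, rose in O2-PBS (1.77, SE 0.23, edgeR adjusted p = 0.00894), where 0.782% of all genes rose. In the other 2 comparisons 0 receptors passed in edgeR, and 0% of all genes did. Itga6 had 0.40, and Dag1, encoding dystroglycan, 0.20 (adjusted p = 0.363) in O2-PBS against RA-PBS.

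The genes whose log2 level followed Lama4 most closely over the 11 retinas, out of 16687, were Msn (Pearson's r = 0.985), Olfm2 (0.98), Uaca (0.976), Ackr2 (0.976), Sh2b3 (0.974), Cdh23 (0.972), Cd248 (0.969) and Slc25a37 (0.968). The retinas fall into 3 groups, and r within groups was 0.615 to 0.857 for these 8. Msn encodes moesin, which links actin to the membrane, Cd248 encodes endosialin of pericytes, and Ackr2 encodes a decoy receptor of chemokines. Among the laminins Lamb1 came at rank 56 (r = 0.939), Lamc1 at rank 217 (r = 0.873) and Lamb2 at rank 711 (r = 0.752), while Lama1 had r = 0.152, Lamc3 0.143 and Lama3 -0.154. The 8 genes were picked for their likeness to Lama4 in these same retinas, so group differences like those of Lama4 follow from the choice. The log2 fold change in O2-PBS against RA-PBS was 2.44 for Cd248 and 1.47 for Msn over 11 animals. Under IC100 against placebo it was -1.67 and -1.16. Over 12 animals the values were 2.44 and 1.47, and under IC100 against placebo -1.73 and -0.76, neither past the thresholds.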

How the data were processed

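RNA of retinas from 12 mice was sequenced after polyA selection as 150 bp paired-end reads. The authors estimated transcript abundance with Kallisto against GRCm39 and summed it per gene with tximport; the deposited values are thus estimated counts per gene, 42.2% of them not whole, that the authors had not scaled to library size. Counts were rounded. Of 36131 Ensembl rows, 35374 were paired with a symbol. In R 4.3.3, edgeR 4.0.16 normalized by TMM, kept genes by filterByExpr (16489 over 12 animals, 16688 over 11), and fitted robust quasi-likelihood models to the 3 groups together, with two-sided tests and Benjamini-Hochberg adjustment over all genes. Thresholds are the study's. At this depth 3 counts were 0.123 to 0.201 CPM. Each library is 1 mouse per the labels, and no 2 libraries of a group agreed within sampling noise.

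The members, the lists (basement membrane partners, receptors, the dystroglycan complex, laminin-related proteins and cell type markers) and the tests were chosen with earlier results of these data known. The rule named every member, up to 4 genes a list that passed, and the 8 genes most correlated with Lama4. Hspg2, Itga6, Dag1, Sgcd, Dmd, Egflam and Ntng1 fell outside it and were named after their values were seen. Transcript lengths came from a GRCm38 annotation, and promoters from RefSeq GRCm38.p6. Alternatives were DESeq2 1.42.0, limma 3.58.1 voom, other normalizations and filters, an adjusted p under 0.05, a fit that is not robust, fits of 2 groups, Y-linked, crystallin, and length and GC terms, and left-out animals. Some genes of the lists are not reported here. The procedures were tested on simulated data.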

Additional observations from a re-analysis of the deposited data

Results flagged for a closer look

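In O2-IC100, 8 of the 9 chains had 1 retina far from the other 3, and in each case it was animal 10, the retina rich in lens RNA. The gap to the nearest retina, as a part of the group's whole range, was 0.971 for Lama1, 0.986 for Lama2, 0.904 for Lama3, 0.934 for Lama4, 0.984 for Lama5, 0.976 for Lamb1, 0.98 for Lamb2 and 0.96 for Lamc1, each above Dixon's 95% critical value for 4 samples. Animal 10 was the highest for these chains except Lama4, for which it was the lowest. In O2-PBS the Lama5 level of animal 5, 56 CPM, stood apart from 34.6 to 37.2 CPM in the other 3 retinas, with a gap of 0.879. In all, 27 sets of 4 retinas were examined and 9 were marked, and chance marks about 1 in 20. The cause of the Lama5 value was not tested.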

How the results depend on the processing

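Of the settings that kept all 11 animals, every one called Lama4, Lamb1 and Lamc1 higher in O2-PBS than in RA-PBS. For O2-IC100 against O2-PBS these settings called 3 to 5 chains, always with Lama4, Lamb1 and Lamc1, except that the fit of only these 2 groups called 6. Without RA-PBS animals 2, 3 and 4 it was also 6. Those fits called 789 and 777 genes in all, against 158 in the reported fit. The numbers of chains called without 1 animal each ran from 3 to 5, 0 to 5 and 0 to 2 over 11 animals in the 3 comparisons (O2-PBS against RA-PBS, O2-IC100 against O2-PBS, O2-IC100 against RA-PBS), and from 0 to 3, 0 to 4 and 0 to 0 over 12. In the same fits and order, all genes called ran from 784 to 1343, 0 to 432 and 21 to 925 over 11 animals. Over 12 they ran from 32 to 1046, 0 to 158 and 0 to 261.

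Over 11 animals O2-IC100 against RA-PBS had 1 chain by DESeq2, by the Y-linked and by the crystallin covariate. Over 12 animals O2-PBS against RA-PBS had 0 chains with scaling by library size only, 3 in the fit of only these groups, 6 with the crystallin covariate and 3 without animals 1 and 10. O2-IC100 against O2-PBS had 1 by DESeq2, 2 with the Y-linked covariate and 4 without animals 1 and 10, and O2-IC100 against RA-PBS had 3 with the crystallin covariate. The numbers for all genes over 12 animals in O2-PBS against RA-PBS were 133 in the reported fit and 45, 867, 2828 and 968 in these 4 settings. For all genes in O2-IC100 against O2-PBS, the reported fit called 0 over 12 animals. DESeq2 called 112, the Y-linked covariate 3484, and the fit without animals 1 and 10 called 282. In O2-IC100 against RA-PBS the numbers were 0, and 3862 with the crystallin covariate. Over 11 animals they were 261 in the reported fit, 562 by DESeq2, 419 with the Y-linked and 1988 with the crystallin covariate. The cause was not tested. DESeq2 gave no p to 3 chains over 12 animals, Lama1, Lama2 and Lamb1. With RA-PBS animals 2, 3 and 4 left out, animal 1 is assumed to vary like the other groups.

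The values that changed sign are log2 fold changes, none of a chain past the thresholds in the reported fit. After the change only Lamb1 in O2-IC100 against O2-PBS (without animal 10, or animals 1 and 10) passed. Calls of the fit with 1 RA-PBS retina are left aside here. Over 12 animals: Limma voom gave Lama2 -0.2, Lama3 -0.03, Lama5 -0.08 and Lamb1 -0.35 for O2-IC100 against O2-PBS, and Lama3 -0.21 and Lamb2 -0.03 for O2-IC100 against RA-PBS. Scaling by library size only gave Lama2 -0.06, Lama3 -0.33, Lama5 -0.32 and Lamb1 -0.58 for O2-IC100 against O2-PBS, and Lama3 -0.46, Lamb2 -0.3 and Lamc1 -0.15 for O2-IC100 against RA-PBS. The Y-linked covariate gave Lama2 -0.47, Lama5 -0.14 and Lamc3 0.46 for O2-PBS against RA-PBS, and Lama3 -0.05 for O2-IC100 against RA-PBS. The crystallin covariate gave Lama1 0.78 and Lama3 0.35 for O2-PBS against RA-PBS, and Lama1 -0.14, Lama2 -0.54, Lama3 -0.22, Lama5 -0.58 and Lamb1 -0.81 for O2-IC100 against O2-PBS, and Lama4 -0.15 for O2-IC100 against RA-PBS. The length and GC correction gave Lamb2 0.02 for O2-IC100 against O2-PBS. Leaving out animals 1 and 10 gave Lama1 -0.42, Lama2 -0.8, Lama3 -0.26, Lama5 -0.62 and Lamb1 -1.03 for O2-IC100 against O2-PBS, and Lama1 -0.53, Lama2 -0.64, Lama3 -0.56, Lama5 -0.36, Lamb1 -0.04, Lamb2 -0.32 and Lamc1 -0.31 for O2-IC100 against RA-PBS.

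Over 11 animals: Limma voom gave Lamb1 0.02 for O2-IC100 against RA-PBS. Scaling by library size only gave Lamb1 0.05 for O2-IC100 against RA-PBS. The Y-linked covariate gave Lama1 0.02 and Lamc3 0.25 for O2-PBS against RA-PBS. The crystallin covariate gave Lama3 0.16 for O2-PBS against RA-PBS, and Lama5 0.75 and Lamb1 0.12 for O2-IC100 against RA-PBS. The length and GC correction gave Lama3 0.05 for O2-IC100 against O2-PBS, and Lama5 0.18 and Lamb1 0.11 for O2-IC100 against RA-PBS. Leaving out RA-PBS animals 2, 3 and 4 (chosen after seeing the data) gave Lama3 0.17 for O2-PBS against RA-PBS, and Lama5 0.8 and Lamb1 0.08 for O2-IC100 against RA-PBS.

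Left-out animals turned the sign within these ranges: Lama3 -0.46 to 0.23, Lama1 -0.54 to 1.54, Lama2 -0.61 to 1.73, Lama5 -0.14 to 1.44, Lamb1 -0.01 to 1.79, Lamb2 -0.34 to 0.46, Lamc1 -0.26 to 0.74 (O2-IC100 against RA-PBS, 12 animals); Lama1 -0.28 to 0.04 (O2-PBS against RA-PBS, 12 animals); Lama1 -0.42 to 1.66, Lama2 -0.80 to 1.48, Lama3 -0.26 to 0.43, Lama5 -0.62 to 0.91, Lamb1 -1.03 to 0.78 (O2-IC100 against O2-PBS, 12 animals); Lama1 -0.27 to 0.04 (O2-PBS against RA-PBS, 11 animals); Lama5 -0.36 to 0.15, Lamb1 -0.13 to 0.17 (O2-IC100 against RA-PBS, 11 animals).

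No paired analysis was possible because the animals carry numbers 1 to 12 and the groups share none. At 14907143 counts or more per retina the depth limits the chains of fewest counts, such as Lamb3.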

Other observations

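Dystroglycan, its partner proteins and the enzymes that add the sugar chain that binds laminin form a link between the basement membrane and the cells of the retina. Of 18 genes of this complex 17 could be tested, and in the 11-animal fit 0 passed in any of the 3 comparisons by edgeR. Of all genes 6.27%, 0.947% and 1.56% passed there. In O2-PBS against RA-PBS, Sgcd, a sarcoglycan gene, had a log2 fold change of -0.63 (SE 0.51). Dmd, encoding dystrophin, had 0.24 (SE 0.15), and Egflam, encoding pikachurin of the photoreceptor synapse, had 0.14 (SE 0.11). Egflam had -0.37 (SE 0.12, adjusted p = 0.166) under IC100 against placebo. The median of the list was -0.01, 0.02 and 0.02 in the 3 comparisons.

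Netrins carry domains like those of laminin. Of 5 genes for such proteins 0 passed in O2-PBS against RA-PBS or under IC100 against placebo over 11 animals. Of all genes 6.27% and 0.947% did. In O2-IC100 against RA-PBS 1 of the 5 was lower, where 0.617% of all genes were. That gene was Ntn1, encoding netrin-1, a gene of few counts at 1.55 to 1.95 CPM in RA-PBS and 0.528 to 0.882 CPM in O2-IC100 without animal 10. Its log2 fold change was -1.19 (SE 0.31, edgeR adjusted p = 0.091). Ntng1 had -0.42 (SE 0.11, adjusted p = 0.0296) in O2-PBS against RA-PBS and -0.46 (SE 0.12, adjusted p = 0.081) in O2-IC100 against RA-PBS, both under a fold of 1.5. Over 12 animals 0 of these 5 genes and 0 of the 17 passed.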
